A study of Homo sapiens with 4 samples.

Results

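The genes described here are 30 genes of G2 phase and mitosis, taken by symbol from a list of kinases, cyclins, kinetochore proteins and spindle proteins. A gene's value was the mean log2 signal of the probesets (small groups of probes, mostly within an exon) whose only annotated gene was that member. All 30 were measured, out of 18640 genes with a value. CDK1 stood in the platform annotation under its older symbol CDC2, and its 12 probesets were assigned to it because POLD1, the other gene with that old symbol, had probesets under its own name. The members rested on 9 to 49 probesets each, 546 in all.

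The series profiled embryoid bodies, floating aggregates in which human embryonic stem cells start to differentiate, made from the established line BG01V, an embryonic stem cell line of abnormal karyotype. They received 10 µM TBBD for 48 h or the vehicle DMSO, the treatment generally falling between day 2 and day 4 of embryoid body formation. TBBD is another name for ellagic acid, a plant polyphenol, and the series title calls it a blocker of histone H3 methylation at arginine 17. There were 2 arrays of TBBD-treated and 2 arrays of DMSO-treated embryoid bodies, each treatment with a replicate 2 and a replicate 1, and the embryoid bodies of both groups were transferred to medium with serum on gelatin. The labels do not say whether a replicate number marks a shared culture, passage or day, nor whether replicates were separate cultures, so a p-value here speaks only of the spread among these 4 samples, which may be technical.

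Entry into mitosis is driven by CDK1 bound to cyclin B, after which polo-like and aurora kinases build the spindle and the kinetochores attach chromosomes to it. Checkpoint kinases at unattached kinetochores hold back the anaphase-promoting complex, a ubiquitin ligase that, with CDC20, later destroys cyclin B and securin so that sister chromatids part. Most of these genes are transcribed in a wave late in the cell cycle, through promoter elements bound by the DREAM and MuvB complexes, B-MYB, FOXM1 and NF-Y, so their RNA is used as a measure of how many cells of a sample are dividing. Human embryonic stem cells divide rapidly with a short G1 phase, and cells that differentiate usually slow down.

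Comparisons were made with limma over all 18640 genes, TBBD against DMSO and replicate 2 against replicate 1. Adjusted p-values are Benjamini-Hochberg values over all genes, and a gene was called at an adjusted p under 0.05. Array medians lay between 6.39 and 6.42 on the log2 scale. The mean level of every member, between 6.42 and 9.72, lay above 5.66, the 95th percentile of the 371 measured olfactory receptor genes, as did that of 74.8% of all genes. Arrays of unequal number stood further apart than arrays of unequal treatment: over all genes the SD of the log2 difference was 0.33 for TBBD 2 minus TBBD 1 and 0.31 for DMSO 2 minus DMSO 1, against 0.19 for TBBD 2 minus DMSO 2 and 0.21 for TBBD 1 minus DMSO 1. Of the markers of the source cells, all 12 pluripotency genes lay above 5.66, as did 8 of 10 markers of visceral endoderm and fetal liver, 10 of 10 of mesenchyme, 5 of 5 of endothelium and 4 of 7 of neural cells.

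The mitotic genes separated the arrays by replicate number. All 30 members lay lower in replicate 2, with a median log2 difference of -0.36, where the median over all genes was -0.0024 and 50.6% of all genes lay below 0. CDK1, PLK1, CENPE and DLGAP5, 4 of the 30, fell past the adjusted threshold, against 2.02% of all genes, and none rose. In 25 members both replicate 2 arrays lay below both replicate 1 arrays, which 25.9% of all genes did. The members that did not separate in this way were AURKA, BIRC5, CDCA8, CENPA and NDC80. In bulk embryoid bodies, fewer dividing cells and less mitotic RNA per cell cannot be told apart.

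**Figure D1:**
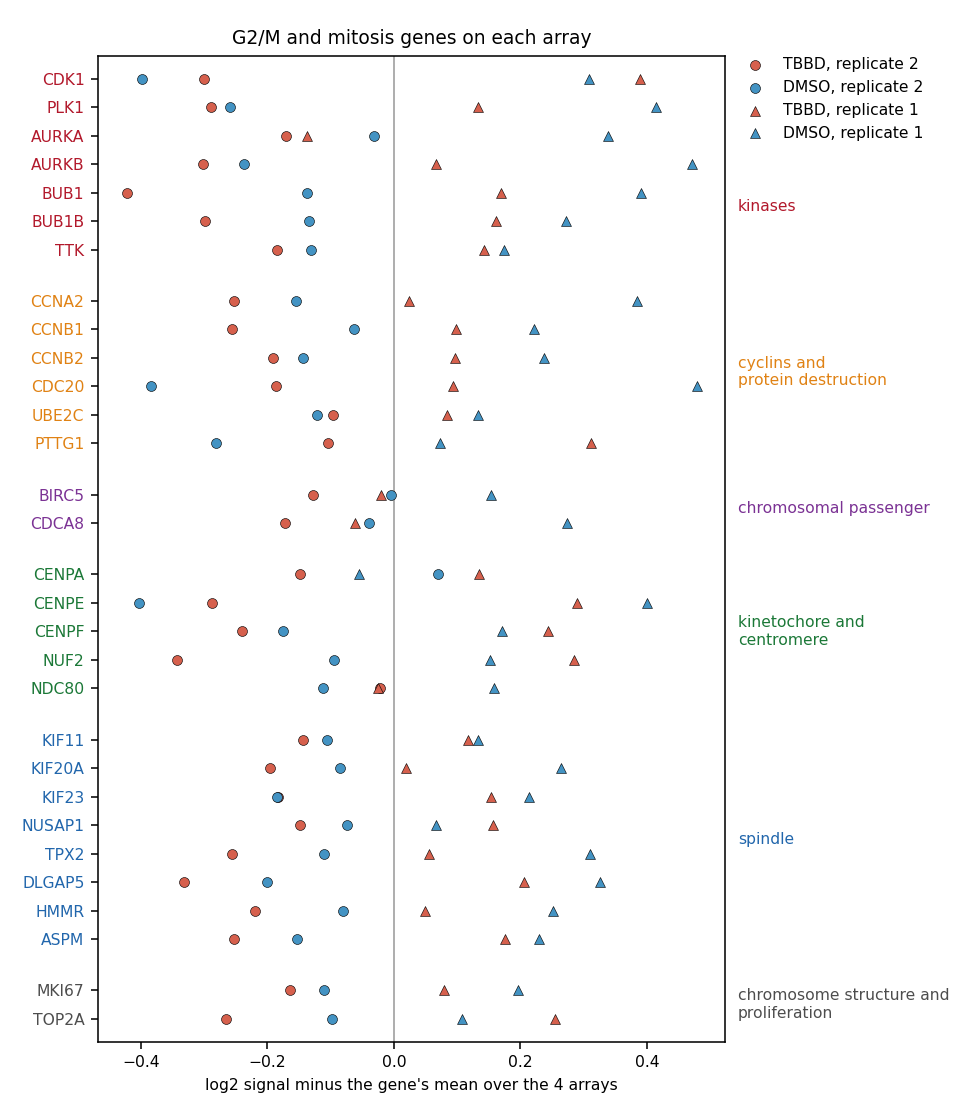
Each member's log2 signal on each of the 4 arrays, as the difference from that gene's mean over the arrays (x axis), 1 row per gene and grouped by role. Circles are replicate 2 and triangles replicate 1, red is TBBD and blue is DMSO. In 25 rows both circles lie left of both triangles, and red lies left of blue in both numbers in 18 rows and right of it in both in 2.

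The kinases had the largest median shift of the role groups, with a difference between replicate 2 and replicate 1 of -0.54 over 7 genes. CDK1, the kinase that starts mitosis, had log2 signals of 7.02 with TBBD and 6.92 with DMSO in replicate 2, against 7.71 with TBBD and 7.63 with DMSO in replicate 1. The 2 numbers did not overlap, and within a number the treatments differed by less than 0.1. CDK1 fell by 0.70 ± 0.10 (SE) in replicate 2 (limma adjusted p = 0.0123), a level 1.62-fold higher in replicate 1, and only 0.917% of all genes had a lower difference. PLK1, the polo-like kinase of centrosome maturation and cytokinesis, had 8.40 with TBBD and 8.43 with DMSO in replicate 2, against 8.83 and 9.11 for TBBD and DMSO in replicate 1. It fell by 0.55 ± 0.12 (limma adjusted p = 0.0470), and DMSO 1 was its highest array. The checkpoint kinase genes BUB1 and BUB1B and the chromosomal passenger kinase gene AURKB differed by -0.56 ± 0.13, -0.43 ± 0.11 and -0.54 ± 0.14, with limma adjusted p-values of 0.0607, 0.0701 and 0.0824. TTK, which starts the checkpoint signal, differed by -0.32 ± 0.10 (limma adjusted p = 0.118).

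AURKA, the kinase of spindle poles, was the exception among the kinases. Its log2 signals were 7.42 with TBBD and 7.56 with DMSO in replicate 2, against 7.46 with TBBD and 7.93 with DMSO in replicate 1. Its high value was that of DMSO 1 alone, and the difference of -0.20 ± 0.16 was not called. One of its 10 probesets differed by 1.29 in the other direction, and AURKA stood at -0.46 when probesets were summarised by their median. The same summary moved 8 other members by over 1.5 times and turned CENPA to 0.03. It brought AURKB to -0.20, CDC20 to -0.26, CCNB1 to -0.10 and CDCA8 to -0.13, nearer 0, and BIRC5 to -0.26, KIF20A to -0.49, NUSAP1 to -0.41 and TPX2 to -0.56, further from it.

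Cyclins and genes of mitotic protein destruction lay lower in replicate 2 by a median of -0.36 over 6 genes, and none was called. CDC20, the activator of the anaphase-promoting complex, had 7.38 with TBBD and 7.18 with DMSO in replicate 2, against 7.66 with TBBD and 8.04 with DMSO in replicate 1. The DMSO arrays were its highest and its lowest, and its difference of -0.57 ± 0.15 had a limma adjusted p of 0.0761. CCNA2, a cyclin of S and G2 phases, differed by -0.41 ± 0.14, and the mitotic cyclin genes CCNB1 and CCNB2 by -0.32 ± 0.11 and -0.33 ± 0.10. PTTG1, which encodes securin, differed by -0.39 ± 0.12, and UBE2C, the ubiquitin-conjugating enzyme that works with the anaphase-promoting complex, by -0.22 ± 0.10. In all 6 both replicate 2 arrays lay below both replicate 1 arrays, which 25.9% of all genes did.

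The kinetochore and centromere genes held both the second largest and the smallest shift of the list. CENPE, a kinesin that carries chromosomes to the spindle equator, had log2 signals of 7.49 with TBBD and 7.38 with DMSO in replicate 2, against 8.07 with TBBD and 8.18 with DMSO in replicate 1. It fell by 0.69 ± 0.10 (SE, limma adjusted p = 0.0146), and 43 of its 49 probesets were lower in replicate 2 in both treatments. CENPF, which links kinetochores to motors, differed by -0.42 ± 0.10 and NUF2, a subunit of the complex that grips microtubules, by -0.44 ± 0.12, with limma adjusted p-values of 0.0588 and 0.0899. NDC80, the partner of NUF2, had 7.03 with TBBD and 6.94 with DMSO in replicate 2, against 7.02 and 7.21 for TBBD and DMSO in replicate 1, and differed by only -0.13 ± 0.11. CENPA, the histone variant that marks centromeres, had 7.31 and 7.53 for TBBD and DMSO in replicate 2, against 7.60 and 7.41 for TBBD and DMSO in replicate 1. Its treatments crossed between the numbers, and it differed by -0.08 ± 0.12. Neither NDC80 nor CENPA was called, and their 95% intervals, from -0.39 to 0.12 and from -0.36 to 0.21, hold no difference as large as that of CENPE.

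Spindle genes lay lower by a median of -0.33 over 8 genes. All 8 had both replicate 2 arrays below both replicate 1 arrays, against 25.9% of all genes. DLGAP5, which stabilises the microtubules that pull on kinetochores, had 7.86 with TBBD and 7.99 with DMSO in replicate 2, against 8.39 with TBBD and 8.51 with DMSO in replicate 1. It fell by 0.53 ± 0.11 (SE, limma adjusted p = 0.0351), by nearly the same step in both treatments (-0.54 with TBBD and -0.53 with DMSO). ASPM, a protein of spindle poles, differed by -0.41 ± 0.10 and the cytokinesis kinesin gene KIF23 by -0.37 ± 0.10, with limma adjusted p-values of 0.0670 and 0.0803. The spindle assembly factor gene TPX2 differed by -0.37 ± 0.12, HMMR, a spindle-associated hyaluronan receptor, by -0.30 ± 0.12, and the cytokinesis kinesin gene KIF20A by -0.28 ± 0.12. KIF11, the motor that pushes the spindle poles apart, and NUSAP1, which bundles microtubules, stood at -0.25 ± 0.10 and -0.22 ± 0.10. The chromosomal passenger genes stood at -0.13 ± 0.11 for BIRC5, which encodes survivin, and -0.21 ± 0.13 for CDCA8, which encodes borealin. The chromosome genes TOP2A, the topoisomerase that untangles sister chromatids, and MKI67, the proliferation antigen Ki-67, differed by -0.36 ± 0.11 and -0.27 ± 0.10. Of the spindle, passenger and chromosome genes, DLGAP5 was the only one called.

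**Figure D2:**
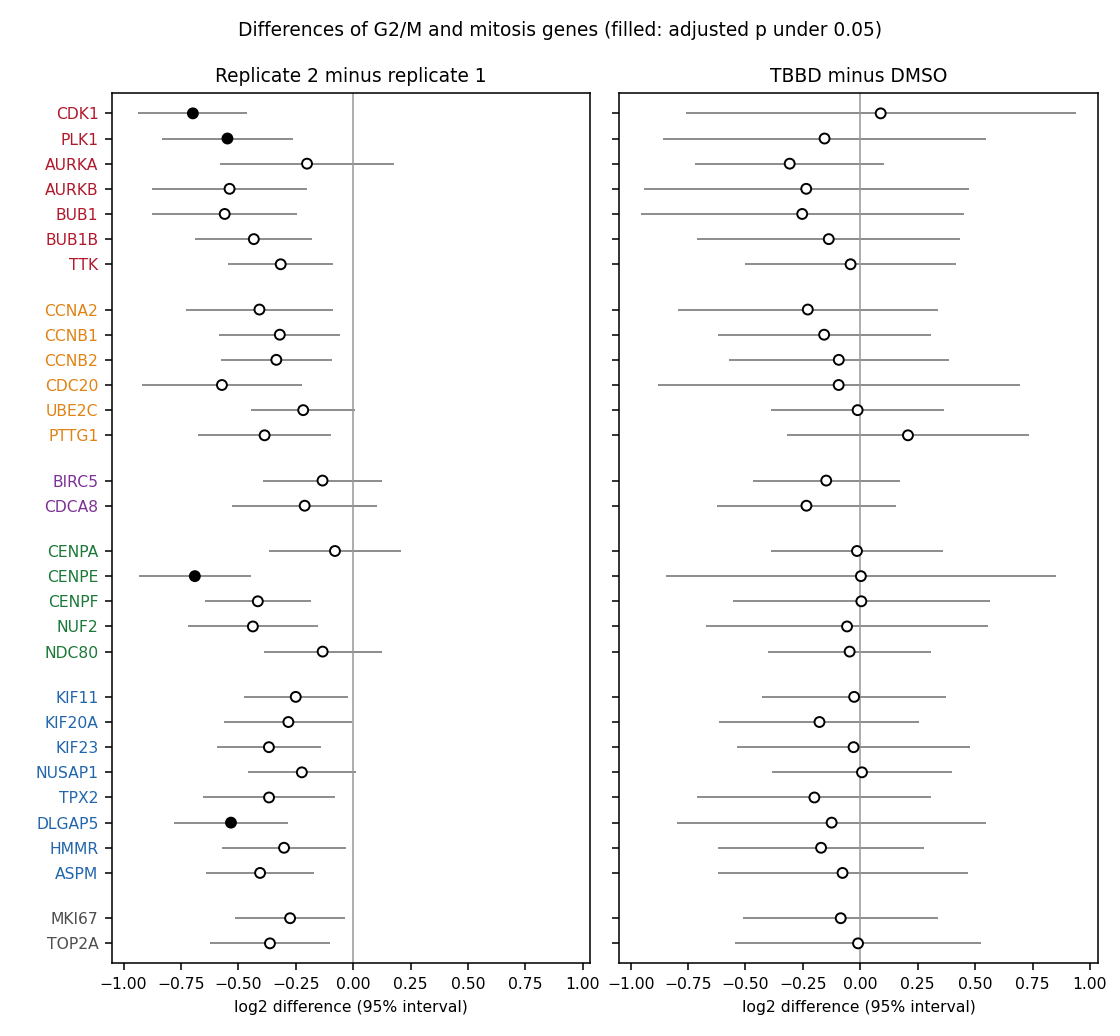
The log2 difference of each member between replicate 2 and replicate 1 (left) and between TBBD and DMSO (right), as points with the 95% interval of limma, grouped by role as in the plot of array levels. Filled points had an adjusted p under 0.05. All 30 points on the left lie below 0 and 4 are filled, while every interval on the right includes 0.

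At an adjusted p under 0.1 limma called 12 members lower in replicate 2, against 4.28% of all genes, and at an unadjusted p under 0.05 it called 23, against 10.6%. Over all genes 1001, or 5.37%, were called in either direction, 377 lower and 624 (3.35%) higher. Each replicate number holds 1 TBBD and 1 DMSO array, and with the treatment as an additional term the calls among members were 2, CDK1 and CENPE. With 1 array left out, CDK1 stayed called in 3 of 4 fits, CENPE in 2, PLK1 in 1 and DLGAP5 in 0, whereas their differences stayed between -0.75 and -0.41. CDK1 had a limma adjusted p of 0.0510 without TBBD replicate 1.

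The shift ran through the exons of these genes. Of the 546 member probesets, 412 (75.5%) were lower in replicate 2 in both treatments, against 28.8% of the 218927 named probesets, and 22 were higher in both. PLK1 was lower in both treatments on 12 of 13 probesets, CDK1 on 11 of 12, BUB1 on 22 of 26 and CENPF on 19 of 21. BIRC5 was lower in both on 4 of 13, CENPA on 4 of 9 and NDC80 on 8 of 17. Probesets of a gene share its RNA and arrays and are not independent.

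The promoters of the members were searched for the cell cycle genes homology region (CHR), the hexamer through which DREAM, MuvB and B-MYB act, and for the CCAAT box bound by NF-Y. The windows ran from 250 bases before to 50 bases after an annotated start site, from RefSeq on GRCh38.p14, and 25 members matched with 28 windows. AURKA, TTK, UBE2C, BIRC5 and TPX2 are named only. The CHR was searched as TTTGAA or TTTAAA and the CCAAT box as CCAAT, on both strands, where TTTAAA reads the same on either strand. Shown are the 4 members called between the replicate numbers, followed by the 3 with the smallest difference among members with a window, each 5′ to 3′ on the gene's strand, with every CHR or CCAAT match on either strand in capitals. They lie at chr10:60778228-60778527 (plus strand, the more downstream of 2 CDK1 windows), chr4:103198294-103198593 (minus), chr16:23678639-23678938 (plus), chr14:55191536-55191835 (minus), chr2:26785806-26786105 (plus), chr18:2571307-2571606 (plus) and chr1:37692266-37692565 (plus).
CDK1: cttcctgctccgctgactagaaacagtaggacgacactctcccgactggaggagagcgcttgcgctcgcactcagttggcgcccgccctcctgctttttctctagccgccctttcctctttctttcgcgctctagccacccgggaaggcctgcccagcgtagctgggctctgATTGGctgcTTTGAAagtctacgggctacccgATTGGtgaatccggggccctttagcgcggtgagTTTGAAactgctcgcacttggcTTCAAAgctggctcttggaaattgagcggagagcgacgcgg
CENPE: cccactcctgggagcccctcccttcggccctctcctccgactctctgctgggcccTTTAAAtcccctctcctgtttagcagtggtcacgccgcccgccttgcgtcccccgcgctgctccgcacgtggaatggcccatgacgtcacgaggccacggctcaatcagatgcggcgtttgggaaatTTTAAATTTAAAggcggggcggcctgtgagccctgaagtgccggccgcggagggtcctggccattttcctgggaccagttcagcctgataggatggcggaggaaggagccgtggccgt
PLK1: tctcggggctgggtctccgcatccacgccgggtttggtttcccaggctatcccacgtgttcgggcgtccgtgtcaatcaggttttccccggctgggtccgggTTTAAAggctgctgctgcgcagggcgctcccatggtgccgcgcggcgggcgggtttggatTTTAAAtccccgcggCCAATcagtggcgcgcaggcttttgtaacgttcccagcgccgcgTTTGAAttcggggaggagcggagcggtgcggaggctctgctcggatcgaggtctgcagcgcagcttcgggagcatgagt
DLGAP5: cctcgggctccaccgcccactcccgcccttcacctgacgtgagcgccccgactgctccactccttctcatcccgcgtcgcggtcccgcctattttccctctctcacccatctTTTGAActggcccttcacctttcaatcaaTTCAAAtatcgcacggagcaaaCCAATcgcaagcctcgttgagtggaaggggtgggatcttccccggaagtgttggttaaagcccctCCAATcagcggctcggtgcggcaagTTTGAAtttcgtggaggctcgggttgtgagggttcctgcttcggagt
CENPA: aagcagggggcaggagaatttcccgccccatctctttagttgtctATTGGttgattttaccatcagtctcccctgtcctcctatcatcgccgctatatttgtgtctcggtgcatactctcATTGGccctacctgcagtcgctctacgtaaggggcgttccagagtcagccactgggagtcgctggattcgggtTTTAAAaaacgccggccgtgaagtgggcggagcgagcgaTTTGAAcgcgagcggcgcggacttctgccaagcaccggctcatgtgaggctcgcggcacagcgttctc
NDC80: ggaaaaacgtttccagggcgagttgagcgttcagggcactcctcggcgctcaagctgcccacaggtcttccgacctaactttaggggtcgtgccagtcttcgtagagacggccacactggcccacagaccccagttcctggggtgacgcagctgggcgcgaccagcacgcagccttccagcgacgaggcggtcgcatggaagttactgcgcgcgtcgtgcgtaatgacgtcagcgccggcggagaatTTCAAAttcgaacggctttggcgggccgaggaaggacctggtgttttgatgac
CDCA8: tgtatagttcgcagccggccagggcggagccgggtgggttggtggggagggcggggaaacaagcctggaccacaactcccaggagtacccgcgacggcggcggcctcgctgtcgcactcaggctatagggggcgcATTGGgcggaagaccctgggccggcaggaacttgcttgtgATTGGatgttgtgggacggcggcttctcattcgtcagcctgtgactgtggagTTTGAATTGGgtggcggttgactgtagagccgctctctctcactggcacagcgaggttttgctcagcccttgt

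The called and the least shifted genes held the same kinds of match. PLK1 had a TTTGAA at position -29 from the start site, CDK1 at -13, CENPA at -18 and CDCA8 at -23, while NDC80 had it on the reverse strand at -3. CENPE held no TTTGAA but a TTTAAA at 3 places, and neither CENPE nor NDC80 held a CCAAT box. Of the 28 member windows, 24 (85.7%) held a CHR in either form, against 24.0% of all 35116 windows, 19 (67.9%) held TTTGAA, against 15.2%, and 24 (85.7%) held a CCAAT box, against 34.6%. Both kinds stood in 20 windows (71.4%), against 9.27%. Among the 20681 windows of genes measured here the shares were 19.9% for a CHR and 34.7% for a CCAAT box.

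Members with and without these letters overlapped in the size of their shift. The 22 members with TTTGAA or TTTAAA in a window had a median difference between replicate 2 and replicate 1 of -0.36. The 3 with neither, AURKB, BUB1 and CCNA2, had -0.54, and no other form of the CHR was searched for. The 21 with a CCAAT box had a median of -0.37 and the 4 without, BUB1B, CENPE, NDC80 and NUF2, had -0.43. A match is a description of the window and does not show that a factor binds there, and these few genes without a match were not tested against the rest.

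**Figure D3:**
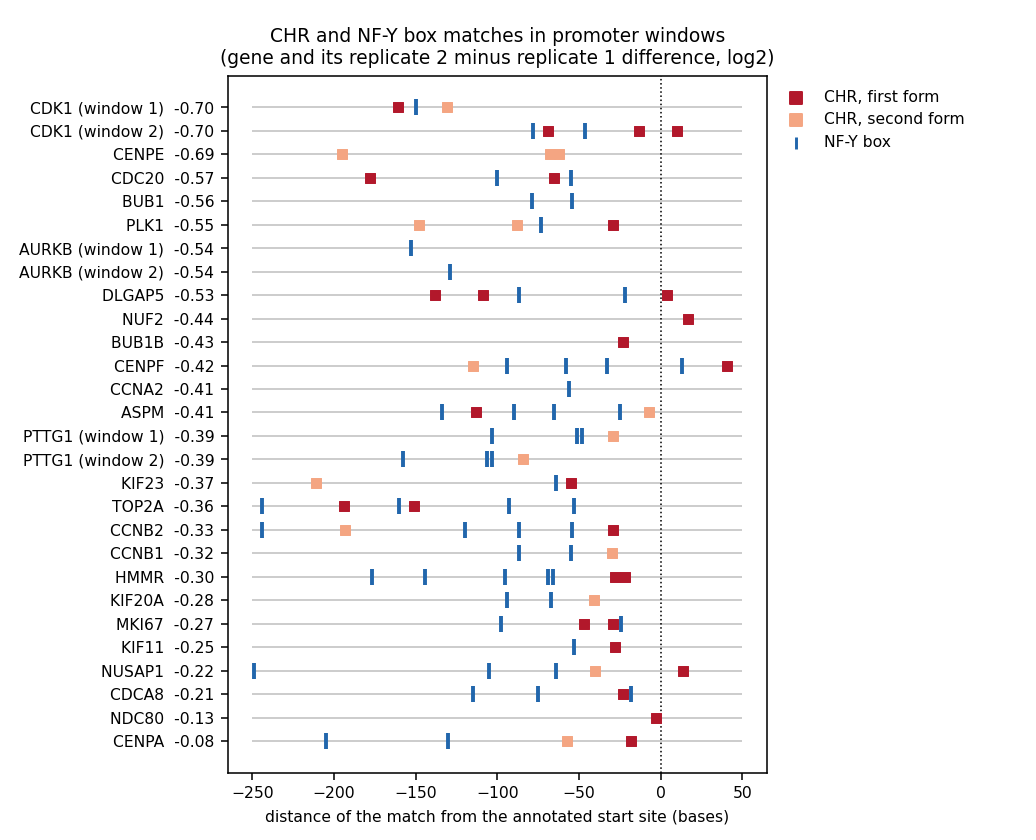
Positions of CHR matches (squares, the TTTGAA form dark and the TTTAAA form light) and CCAAT boxes (blue bars, labelled NF-Y box) in the 28 promoter windows, in bases from the annotated start site, 1 row per window. Rows run from the largest to the smallest difference between replicate 2 and replicate 1, printed beside the gene. Upper and lower rows alike hold matches.

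TBBD against DMSO, the comparison the series was made for, called no member. Over all genes limma called 0 (0%), with 139 of 18640 at an unadjusted p under 0.05, and at that unadjusted level it placed 0 of the 30 members lower, against 0.349% of all genes. The members' median difference was -0.09 on the log2 scale against -0.0035 over all genes, and 25 of 30 lay below 0, against 51.2% of all genes. Both TBBD arrays lay below both DMSO arrays in 3 members, AURKA, BIRC5 and CDCA8, which 10.4% of all genes did. The 95% interval of a member's difference had a median half-width of 0.51, wider than any difference seen, in a fit whose error includes the difference between the replicate numbers. With the number as a block the median SE of the members was 0.116, against 0.198 without it, and no member was called either way. The direction of the median turned without DMSO replicate 1, to 0.09 with 23 members higher, and without TBBD replicate 2, to 0.07 with 21 higher. Those fits compare unequal numbers of replicate 1 and replicate 2 arrays, and the members differ by replicate number.

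Within a replicate number, TBBD can be set against DMSO with that difference left out, as 1 array against 1 and so with no test. Their median stood at -0.09 (replicate 2) and -0.12 (replicate 1), where those over all genes were 0.01 and -0.02. In each number 23 of 30 members lay lower with TBBD. In both numbers 18 lay lower, which 23.0% of all genes did, 2 lay higher in both, which 21.5% of all genes did, and 10 took opposite signs, as 55.3% of all genes did. The arrays stood in 1 order, DMSO 1 highest, then TBBD 1, DMSO 2 and TBBD 2, in 15 members, against 7.90% of all genes.

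Among the kinases, 6 of 7 lay lower with TBBD in both numbers. AURKA had 7.42 with TBBD against 7.56 with DMSO in replicate 2, and 7.46 with TBBD against 7.93 with DMSO in replicate 1. Its difference of -0.31 ± 0.16 (SE) was the lowest of the list and was not called, with a 95% interval from -0.72 to 0.10. That rank did not hold when probesets were summarised by their median. AURKA then stood at -0.24, and others, CCNB1 and TPX2 among them at -0.32 each, lay lower. BUB1 differed by -0.29 (replicate 2) and -0.22 (replicate 1), AURKB at -0.07 and -0.41 in the same order, and PLK1 at -0.03 and -0.28. BUB1B stood at -0.16 and -0.11 and TTK at -0.05 and -0.03, so the steps were of unlike size, and none of the 6 was called. CDK1, which had the largest shift between numbers, lay higher with TBBD in both, by 0.10 in replicate 2 and 0.08 in replicate 1.

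The kinetochore genes took opposite signs in the 2 numbers in 5 of 5, the commonest pattern over all genes (55.3%), and the 30 further kinetochore and checkpoint genes did so in 16, with 13 lower in both. NUF2 differed by -0.25 (replicate 2) and 0.13 (replicate 1), CENPA at -0.22 and 0.19, and CENPF at -0.06 and 0.07, while CENPE differed by 0.11 (replicate 2) and -0.11 (replicate 1), and NDC80 at 0.09 and -0.18. Their means over the numbers lay between -0.06 and 0.0045. With 1 array per treatment and number, a difference between the numbers in the response to TBBD cannot be tested.

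Spindle genes lay lower with TBBD in both numbers in 6 of 8. TPX2 differed by -0.15 (replicate 2) and -0.25 (replicate 1), HMMR at -0.14 and -0.20, DLGAP5 at -0.13 and -0.12, and KIF20A at -0.11 and -0.24. ASPM differed by -0.10 and -0.05 and KIF11 by -0.04 and -0.01, KIF23 stood at 0.0016 and -0.06, and NUSAP1 at -0.07 and 0.09. In the passenger complex, CDCA8 differed by -0.13 (replicate 2) and -0.34 (replicate 1), and BIRC5 at -0.12 and -0.17. Both TBBD arrays of each lay below both of its DMSO arrays, which 10.4% of all genes did. The means of -0.23 ± 0.15 for CDCA8 and -0.15 ± 0.12 for BIRC5 were not called. CDCA8 stood at -0.06 when its probesets were summarised by their median.

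Of the cyclins and the genes of protein destruction, CCNA2, CCNB1 and CCNB2 lay lower with TBBD in both numbers, at -0.10, -0.19 and -0.05 in replicate 2 and at -0.36, -0.12 and -0.14 in replicate 1. CDC20 differed by 0.20 (replicate 2) and -0.39 (replicate 1), and UBE2C at 0.02 and -0.05. PTTG1 was the highest of the list with TBBD, at 0.21 ± 0.20 (SE), 0.18 in replicate 2 and 0.24 in replicate 1. It rested on 9 probesets, 1 of which differed by 2.05, and it stood at 0.07 when summarised by their median. That summary turned UBE2C to 0.18, CENPA to 0.13, TOP2A to 0.10 and HMMR to 0.04, and CENPF to -0.10, NUSAP1 to -0.06 and CENPE to -0.0047. It also took the TBBD difference of CDC20, which had a probeset at 1.21, from -0.09 to -0.26, and that of CCNB1 from -0.16 to -0.32. PTTG1 has near-identical copies in the genome, so its value is uncertain. MKI67 differed by -0.05 (replicate 2) and -0.12 (replicate 1), and TOP2A at -0.17 and 0.15.

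**Figure D4:**
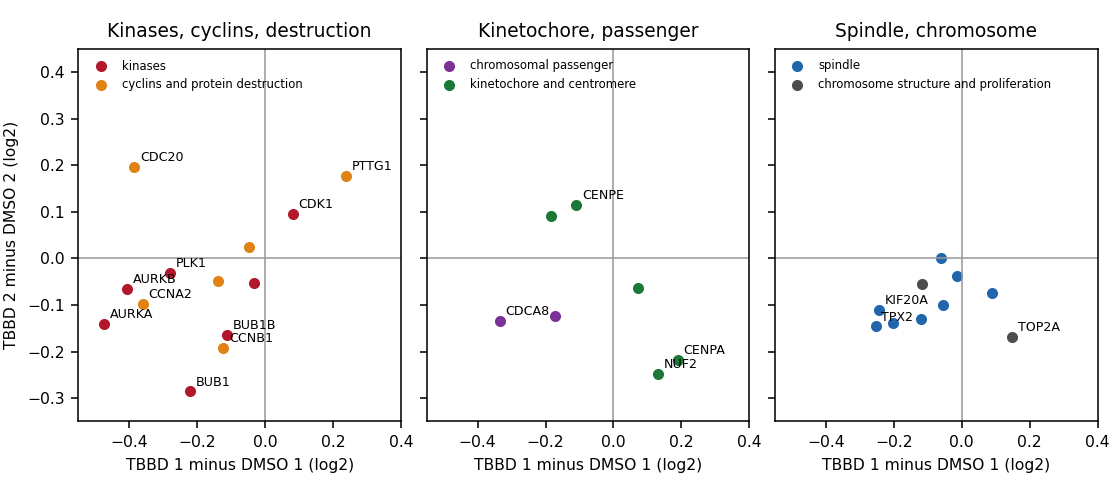
TBBD minus DMSO (log2) in replicate 1 (x axis) and in replicate 2 (y axis), 1 point per member, in 3 panels by role. Points at the lower left were lower with TBBD in both numbers, 18 in all. The 5 kinetochore genes (green) lie in the upper left and lower right, with opposite signs.

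The exons were less uniform for TBBD than for the replicate number. Of the 546 member probesets, 198 (36.3%) were lower with TBBD in both numbers, against 23.7% of all named probesets, and 73 were higher in both. In 10 members more than 50% of the probesets were lower with TBBD in both numbers, among them PLK1 with 7 of 13, BUB1 with 15 of 26, KIF20A with 12 of 19 and TPX2 with 13 of 25. CENPE had 9 of 49 lower in both and 10 higher in both.

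Other genes of the pathway lay lower in replicate 2 too. Of 149 measured genes outside the members, 123 did so, at a median of -0.18, where 50.6% of all genes lay lower. Past the threshold 3 fell, a share near the 2.02% of all genes called lower, and 1 rose. The mitotic kinase genes WEE1, which restrains CDK1, and MELK fell by 0.57 ± 0.11 and 0.54 ± 0.10 (SE), with limma adjusted p-values of 0.0330 and 0.0269, and the cytokinesis kinesin gene KIF20B fell by 0.54 ± 0.10 (limma adjusted p = 0.0269). All 12 further kinases and phosphatases, all 22 further spindle and cytokinesis genes and 28 of 30 further kinetochore and checkpoint genes lay lower, with medians of -0.20, -0.30 and -0.21. RACGAP1 and ANLN of the cleavage furrow stood at -0.48 ± 0.11 and -0.47 ± 0.11, and the kinetochore genes ZWILCH and CENPI at -0.46 ± 0.11 and -0.49 ± 0.12, none of them called. Condensin and cohesin genes had a median of -0.19, with 15 of 18 lower, and NCAPG stood at -0.43 ± 0.11.

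The remaining lists of the pathway were mixed. The list for transcription of G2/M genes pooled MYBL2 and FOXM1 with genes such as LIN37, E2F5 and RBBP4. Its median was 0.05, with 6 of 15 lower and 9 higher in replicate 2, and none was called. MYBL2, which encodes B-MYB, stood at -0.36 ± 0.15, at -0.08 between the TBBD arrays and -0.64 between the DMSO arrays. FOXM1 stood at -0.29 ± 0.15, at -0.06 and -0.53 in the same order, and LIN37 at 0.23 ± 0.12. G1/S and replication genes had a median of -0.21 with 24 of 29 lower, at -0.04 between the TBBD arrays and -0.35 between the DMSO arrays, and none was called. Subunits of the anaphase-promoting complex and its partners had a median of -0.14, with 11 of 15 lower. The 8 CDK inhibitor genes had a median of -0.14, with 5 lower in replicate 2 and CDKN2A at -0.33 ± 0.10, not called. Against most of its list, CDKN1C, which encodes p57 and is imprinted, rose: it had 7.55 with TBBD and 7.61 with DMSO in replicate 2, against 7.05 with TBBD and 6.74 with DMSO in replicate 1, a difference of 0.69 ± 0.13 (SE, limma adjusted p = 0.0281). CDKN3, a phosphatase of cyclin-dependent kinases, stood at -0.42 ± 0.11 (limma adjusted p = 0.0702).

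With TBBD against DMSO, 119 of those 149 genes lay lower, at a median of -0.08, and none was called. Within the numbers that median stood at -0.03 (replicate 2) and -0.14 (replicate 1). G1/S genes had medians of 0.07 (replicate 2) and -0.23 (replicate 1), and the list for transcription of G2/M genes had 0.02 and -0.17. RBBP4, a MuvB and chromatin subunit, had the smallest p of the transcription list, at 9.37 with TBBD against 9.57 with DMSO in replicate 2 and 9.12 with TBBD against 9.65 with DMSO in replicate 1. Its difference of -0.36 ± 0.14 did not pass the adjusted threshold.

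**Figure D5:**
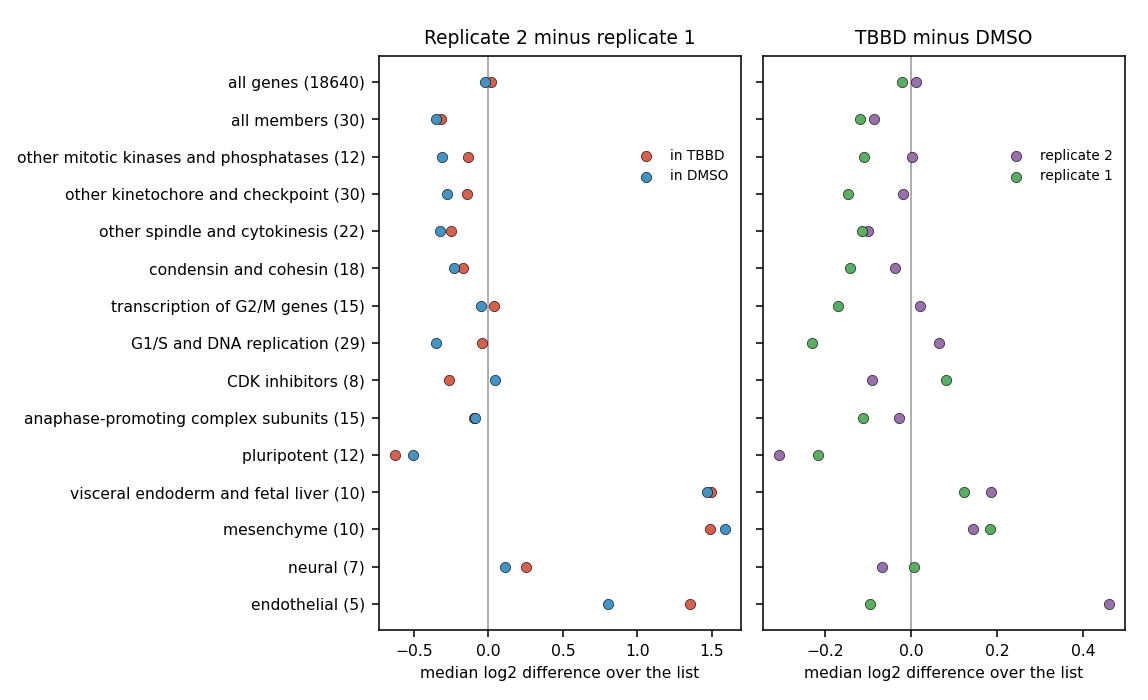
Median log2 difference over each gene list (number of measured genes in brackets) between replicate 2 and replicate 1 within each treatment (left) and between TBBD and DMSO within each number (right). The 30 members stand at -0.32 and -0.35 on the left and at -0.09 and -0.12 on the right. Markers of endoderm and mesenchyme lie far to the right on the left panel and pluripotency markers to the left on both.

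Markers of cell types also differed between the replicate numbers, where 3.35% of all genes were called higher in replicate 2 and 2.02% lower. Markers of visceral endoderm and fetal liver had a median difference of 1.55, with 9 of 10 higher in replicate 2 and 7 called, and their summed linear signal was 1329 to 1625 in replicate 2 against 482 to 525 in replicate 1. Mesenchyme markers had a median of 1.49, with 10 of 10 higher and 8 called, and summed to 11373 to 12588 in replicate 2 against 3953 to 4544 in replicate 1. Endothelial markers were higher in 5 of 5, with 4 called, and summed to 1180 to 1613 in replicate 2 against 601 to 628 in replicate 1. Pluripotency markers had a median of -0.65, with 11 of 12 lower and 5 called lower, and summed to 3570 to 4071 in replicate 2 against 5037 to 5449 in replicate 1. DNMT3B, a DNA methyltransferase of pluripotent cells, fell by 0.80 ± 0.12 (limma adjusted p = 0.0155), while SOX2, shared with neural progenitors, rose by 1.29 ± 0.20 (limma adjusted p = 0.0151). Neural markers were mixed, with a median of 0.08, 4 of 7 higher and 1 called, and summed to 701 to 740 in replicate 2 against 671 to 798 in replicate 1. No marker can be read as at 0 on these arrays. What part the make-up of the embryoid bodies has in the lower mitotic signals was not tested.

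With TBBD the same lists stood nearer 0. Pluripotency markers had a median of -0.21 with 11 of 12 lower, summing to 3570 to 5037 with TBBD against 4071 to 5449 with DMSO, and mesenchyme markers had a median of 0.16 with 9 of 10 higher, summing to 4544 to 12588 with TBBD against 3953 to 11373 with DMSO. Markers of visceral endoderm and fetal liver had a median of 0.14 with 10 of 10 higher, summing to 525 to 1625 with TBBD against 482 to 1329 with DMSO. Within the numbers, 8 of 12 pluripotency markers lay lower with TBBD in both, against 23.0% of all genes. Of the mesenchyme and of the endoderm and liver markers, 6 of 10 each lay higher in both, against 21.5% of all genes. Endothelial markers had a median of 0.20, summing to 601 to 1613 with TBBD against 628 to 1180 with DMSO. The numbers differed there: their median was 0.46 in replicate 2, with 5 of 5 higher, and -0.10 in replicate 1, with 2 of 5 higher. Only 2 of 5 lay higher in both, against 21.5% of all genes. Neural markers had a median of -0.03, summing to 671 to 740 with TBBD against 701 to 798 with DMSO. None of the markers was called with TBBD, and their part in the small shift of the members was not tested.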

How the data were processed

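RNA from 4 samples was hybridised to Affymetrix Human Gene ST arrays. RMA was run by the authors, per the submitters' processing notes. Its version, its settings and the build were not given in the sources used here. What the authors deposited is 1 signal for each probeset and array, and its range places it on a log2 scale. The table held 247312 probesets, and the 277 with a placeholder in any of 358 cells were left out. Also set aside were 9980 probesets with more than 1 symbol and 18128 without a symbol. Of 18683 symbols, 16056 were current, 2569 were updated through RefSeq and 58 were kept as given. An older symbol shared by several genes was given to the only one without probesets of its own (41 symbols, CDC2 among them). The 218927 remaining probesets were averaged per gene. The number of arrays limits the precision.

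limma tested TBBD against DMSO with the group as the only term, and replicate 2 against replicate 1 with the number in its place; p-values are two-sided and Benjamini-Hochberg adjusted over the 18640 genes. All members are named, and from each other list up to 3 genes with the smallest p in each comparison could be named. CDKN3 and RBBP4 come by that rule. The members and lists were chosen with earlier results of these data known. The fit was checked on simulated data with independent errors, no step between replicate numbers and planted changes larger than any member difference. That check does not speak for differences of the size seen here. Alternatives were another normalization, centring, the brighter genes, the median over probesets, genes with 3 or more probesets, a prior that is robust or follows intensity, a block, other thresholds and each array left out. Tools were R 4.3.3, limma 3.58.1, Python 3.11.15, numpy 2.4.6, pandas 2.3.3 and matplotlib 3.10.9.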

Additional observations from a re-analysis of the deposited data

How the results depend on the processing

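No gene passed limma's adjusted threshold between TBBD and DMSO in any setting run (139 of 18640 had an unadjusted p under 0.05). That count was 0 with the replicate block too, and no member was called (496 genes at an unadjusted p under 0.05). The labels do not say that the number pairs the samples, and only 2 pairs exist. The step between numbers in TBBD and that in DMSO correlated over genes with a Pearson r of 0.566, and the block changed no call of TBBD against DMSO. The members' median for TBBD was -0.066 after quantile normalization again and ran from -0.278 without TBBD replicate 1 to 0.090 without DMSO replicate 1. The count of members lower with TBBD in both numbers was 16 with the median over probesets and 10 when over 50% of single probesets had to be lower in both.

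Between the replicate numbers, 1001 genes and 4 members were called, 653 and 2 with the treatment block, 1798 and 12 at an adjusted p under 0.1, and 3908 and 23 at an unadjusted p under 0.05. With 1 array left out, genes called ran from 368 without TBBD replicate 2 to 685 without DMSO replicate 2, and members called from 1 (CDK1) without DMSO replicate 1 to 4 (AURKB, CDC20, CENPE and PLK1) without TBBD replicate 1. The members' median was -0.310 after quantile normalization again, -0.392 with arrays centred, -0.406 with the median over probesets, and from -0.400 to -0.284 with 1 array left out. It stayed below 0 in every setting run. PLK1 was not called after quantile normalization again (limma adjusted p = 0.0514) or with an intensity trend (limma adjusted p = 0.0515). The cause of these changes was not tested, beyond fewer arrays or degrees of freedom in some. Alternatives that count members called, or leave out CDK1, were added after seeing the data. Leaving out CDK1 gave medians of -0.362 between the numbers and -0.094 with TBBD. With 2 arrays a group, smaller differences than the intervals given are not detectable.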
